A study of Mus musculus with 8 samples.

Results

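The 4 arrays described here follow naive CD4+ T cells, taken from C57BL6/NCrl mice, during their first activation in the presence of the Notch ligand Delta-like 4. They were chosen by their titles, as the arrays of cells cultured with Delta4-Ig, and are 4 of the 8 arrays of the series. Day 3 with Delta4-Ig was measured in mouse 1 on 2 technical replicate arrays and in mouse 2 on 1 array, and day 1 with Delta4-Ig was measured in mouse 1 on 1 array, so the 4 arrays stand for 3 samples. The other 4 arrays hold cells of the same mice on the same days with control Ig in its place, again as 3 samples. In all groups the cells had been sorted as CD4+ and CD62L+ and as negative for CD44, CD25 and DX5, from spleen and from lymph nodes (brachial, axillary and inguinal). All cultures received plate-bound antibody to CD3e at 10 µg/ml and soluble antibody to CD28 at 1 µg/ml, and wells carried either Delta4-Ig or control Ig at 5 µg/ml. The mice carried no engineered allele according to the labels, and no cytokine that directs helper cells is named in them.

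A naive T cell that meets its antigen leaves quiescence, grows, switches to aerobic glycolysis and divides, and it starts to make the cytokines that define helper subsets. The signals come through the T cell receptor and CD28, which the antibodies to CD3e and CD28 replace in culture. Delta-like 4 binds Notch receptors on the T cell, which are then cut by gamma-secretase so that their intracellular part moves to the nucleus and activates target genes with RBPJ. Day 1 and day 3 therefore sample an early and a later state of cells that have seen both kinds of signal.

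Values are background-corrected, quantile-normalized log2 intensities as the authors deposited them, and a difference of 1 is a 2-fold change. Of 25697 probes, 11413 had a detection p-value under 0.01 on at least 1 of the 4 Delta4-Ig arrays, and these stood for 7892 genes, each given by its brightest detected probe. Between 9409 and 10543 probes were detected per Delta4-Ig array, with the highest number in mouse 2. The 7 CD4 T cell markers on the array were detected on all 4 Delta4-Ig arrays. Beside Cd4 these were Cd3d, Cd3e, Cd3g, Cd247, Thy1 and Cd2, which do not separate CD4 from CD8 T cells. Of other cell types, 2 of 9 B cell markers, 2 of 14 myeloid and dendritic cell markers and 2 of 7 natural killer cell markers were detected on any of these arrays. Ms4a1, Cd79a, Lyz2, Itgam, Itgax, Klrb1c and Ncr1 were detected on none of them. Cd8b1 was detected on all 4 Delta4-Ig arrays, at 9.48 and 10.56 in mouse 1 and mouse 2 at day 3 against 10.01 at day 1, while Cd8a was detected on none. The summed intensity of the 7 CD4 T cell markers on the linear scale was 40338 in mouse 1 and 79195 in mouse 2 at day 3, against 32637 at day 1. Cd4 itself was at 7.76 in mouse 1 and 8.26 in mouse 2 at day 3, against 8.18 at day 1, so the sum does not stand for Cd4. In these bulk samples, fewer cells of a type and less RNA per cell cannot be told apart.

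The change within mouse 1, the animal with both days, is given first. There, 827 genes were at least 2-fold higher at day 3 than at day 1, which is 10.5% of the genes, and 608 were at least 2-fold lower, which is 7.7%. The technical arrays of mouse 1 at day 3 differed at least 2-fold for 44 genes, or 0.558%, so differences of that size between arrays of 1 sample were rare. In mouse 2 at day 3, 757 of the 827 (91.5%) were also above the day 1 level, and 468 of the 608 (77.0%) were also below it. At least 2-fold in both mice were 590 genes above day 1 (7.48%) and 238 genes below it (3.02%). Higher by any amount in both mice were 2550 genes (32.3%), and lower by any amount were 2884 (36.5%). These counts share the day 1 sample, which came from mouse 1, so the change of mouse 2 also holds the difference between the animals. The spread of the change over genes was larger in mouse 2 (SD 1.33) than in mouse 1 (SD 0.948), and the mice differed from each other at day 3 with an SD of 1.07. A gene that entered only because it was detected at day 3 had to lie above day 1, and 336 of the 827 genes were not detected at day 1. Of the 608 lower genes, 180 were not detected in mouse 1 at day 3.

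The planned limma fit over the 6 samples, which treats the mice as replicates without naming them, called 0 probes at an adjusted p of 0.05. In that fit 934 probes had an unadjusted p under 0.05, where 571 would be met by chance, and the smallest adjusted p was 0.230. The same fit with the mouse as a block, which is possible because the labels number the animals, called 342 probes with Benjamini-Hochberg adjustment, 262 higher (2.3%) and 80 lower (0.701%) at day 3. In the blocked fit 1901 probes had an unadjusted p under 0.05, and so did 1292 of the 7892 genes (16.4%), against which counts of list members at that level are to be read. By gene, 203 rose (2.57%) and 40 fell (0.507%). Of these 243, 236 changed in the same direction in both mice, as did 5434 of all 7892 genes (68.9%). Both mice enter the fit and share the day 1 array, so this agreement adds no support. Of the 203 genes, 90 were not detected at day 1 and entered through day 3 alone. Of the 40 genes, 3 were undetected on every day 3 array. With scaling to the 75th percentile in place of quantile normalization the blocked fit called 463 probes higher and 243 lower. With no background correction it called 18 higher and 1 lower, and with no detection filter 0. The verbs rose and fell are used below only for genes past the threshold of the blocked fit, which has 1 residual degree of freedom, and its estimates rest mostly on mouse 1. Estimates of this fit are given with SE. Delta4-Ig gave 3 samples from 2 mice, but the fit holds all 6 samples with 1 mouse term for both stimuli. The control Ig samples therefore also enter each estimate and its SE. An estimate can lie outside the changes of the 2 mice, as for Tgm2 (estimate 7.42, changes 8.40 in mouse 1 and 9.72 in mouse 2). Other values are described per animal, without a test.

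**Figure D1:**
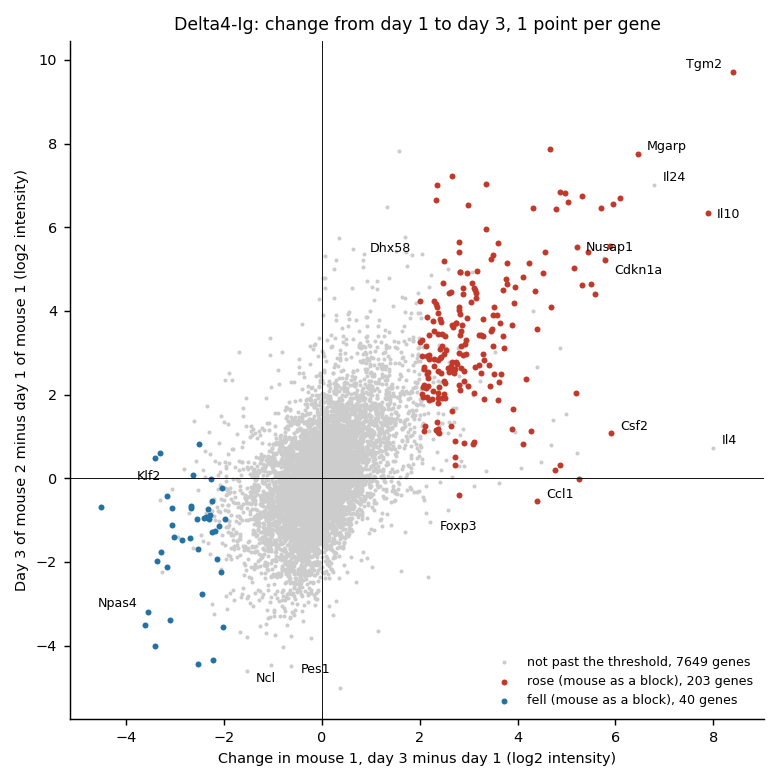
Each point is 1 of 7892 genes. The horizontal axis is the change in mouse 1 and the vertical axis is day 3 of mouse 2 minus day 1 of mouse 1, both in log2 intensity with Delta4-Ig. Red points mark the 203 genes that rose and blue points the 40 that fell under the blocked fit, and Il4 and Csf2 lie far to the right but low, since mouse 2 did not share most of their change.

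Genes of mitosis were higher at day 3 in both mice. Of 28 detected members of the mitosis and spindle list, 26 were higher at day 3 in both mice and 24 were at least 2-fold higher in both. The list had a median change of 2.45 in mouse 1 and 2.18 in mouse 2, against -0.03 and -0.05 over all genes, and 15 members rose while 0 fell. Nusap1, which bundles spindle microtubules, stood at 12.27 and 12.33 on the arrays of mouse 1 and 12.61 in mouse 2 at day 3, against 7.09 at day 1, and rose by 5.23 ± 0.42 (SE, adjusted p = 0.00389 in limma with the mouse as a block). Plk1, the polo-like kinase that drives entry into mitosis, was at 12.12 and 12.21 in mouse 1 and 11.60 in mouse 2 at day 3, against 7.49 at day 1. All day 3 values of both genes lay above day 1 by more than 4 units. The kinase gene Aurka, which acts at the spindle poles, was at 12.06 and 12.03 in mouse 1 and 11.43 in mouse 2 at day 3, against 8.33 at day 1. Cenpa, the histone H3 variant of centromeres, was at 13.80 and 13.98 in mouse 1 and 13.94 in mouse 2, against 10.42 at day 1. Both genes rose, and each day 3 value lay above the day 1 value, which comes from 1 array. Tpx2, Cdca3, Prc1, Kif2c, Cdc20, Kif4, Kif22, Birc5, Kif11, Spc25 and Kif23, which encode spindle, motor and kinetochore proteins, the survivin subunit of the chromosomal passenger complex and the activator of the anaphase-promoting complex, rose as well, with changes in mouse 1 between 2.43 for Kif23 and 3.90 for Tpx2. Cdk1, the mitotic kinase, changed by 2.08 in mouse 1 and 1.53 in mouse 2, and Top2a, which untangles chromosomes, by 1.95 and 2.29, without passing the threshold. Pttg1, the gene of securin, and Spc24, a kinetochore subunit, were the members not higher in both mice.

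Promoters of this list are shown because its members moved together. RefSeq windows of 250 bases before and 50 bases after the start (build GRCm38.p6) were matched for 23 of the 28 genes, in 24 windows. The letters CCAAT, the core of the box bound by the factor NF-Y and often found in promoters of mitotic genes, were searched on both strands, where the other strand reads ATTGG. They occurred in 18 of 24 windows, and in 3209 of the 8386 windows (38.3%) of detected protein-coding genes. Capitals mark CCAAT or ATTGG in the 3 members with the largest change in mouse 1 among those with 1 window that holds the motif. The windows are chr7:122159185-122159484 on the plus strand for Plk1, chr2:172370521-172370820 on the minus strand for Aurka and chr6:124829926-124830225 on the plus strand for Cdca3, each written 5′ to 3′ along its gene.
Plk1: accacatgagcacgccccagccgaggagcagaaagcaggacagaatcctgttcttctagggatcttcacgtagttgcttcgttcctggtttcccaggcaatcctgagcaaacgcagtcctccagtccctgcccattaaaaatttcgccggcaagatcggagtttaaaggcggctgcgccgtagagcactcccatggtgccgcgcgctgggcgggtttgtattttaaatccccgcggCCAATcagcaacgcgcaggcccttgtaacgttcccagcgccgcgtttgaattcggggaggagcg
Aurka: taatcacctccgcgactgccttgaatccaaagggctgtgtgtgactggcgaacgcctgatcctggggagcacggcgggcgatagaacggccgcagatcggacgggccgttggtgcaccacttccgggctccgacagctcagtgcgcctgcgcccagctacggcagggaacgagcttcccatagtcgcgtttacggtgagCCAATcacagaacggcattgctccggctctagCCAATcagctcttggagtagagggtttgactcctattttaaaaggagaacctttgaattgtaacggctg
Cdca3: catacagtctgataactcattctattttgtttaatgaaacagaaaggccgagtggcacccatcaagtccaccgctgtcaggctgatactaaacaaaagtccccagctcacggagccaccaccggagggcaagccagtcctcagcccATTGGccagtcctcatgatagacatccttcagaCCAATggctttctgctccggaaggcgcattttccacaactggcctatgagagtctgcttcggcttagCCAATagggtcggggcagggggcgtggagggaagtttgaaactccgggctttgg
Plk1 holds 1 match, Aurka 2 and Cdca3 3. A match describes the letters and does not show that a factor binds there.

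Genes of DNA replication did not follow the mitotic genes. The S phase list had 32 detected members with a median change of -0.14 in mouse 1 and -0.61 in mouse 2, and 21 were lower than day 1 in both mice while 4 were higher in both. Subunits of the MCM helicase, which unwinds DNA at replication origins, were at or below their day 1 levels. Mcm7 fell (estimate -2.26 ± 0.43, adjusted p = 0.0344 in limma with the mouse as a block), with 8.59 and 8.31 in mouse 1 and 10.04 in mouse 2 at day 3, against 10.78 at day 1. Mcm3 changed by -1.24 in mouse 1 and -1.84 in mouse 2, and Mcm2 by -1.05 and -1.62, without passing the threshold. Pcna, the sliding clamp, was at 9.69 and 9.98 in mouse 1 and 9.59 in mouse 2 at day 3, against 9.92 at day 1. Its day 3 values lay on both sides of the day 1 value. The highest members in mouse 1 were Tk1 (2.06 in mouse 1 and 1.30 in mouse 2) and Rrm2 (1.68 and 0.71), which encode thymidine kinase and a ribonucleotide reductase subunit, and in mouse 2 the highest was E2f2, a transcription factor of the cell cycle (0.04 in mouse 1 and 2.54 in mouse 2). None of the 3 passed the threshold. Transcripts of S phase were already well detected at day 1, as all 32 members were detected there, while 4 of the 28 mitosis members were not.

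**Figure D2:**
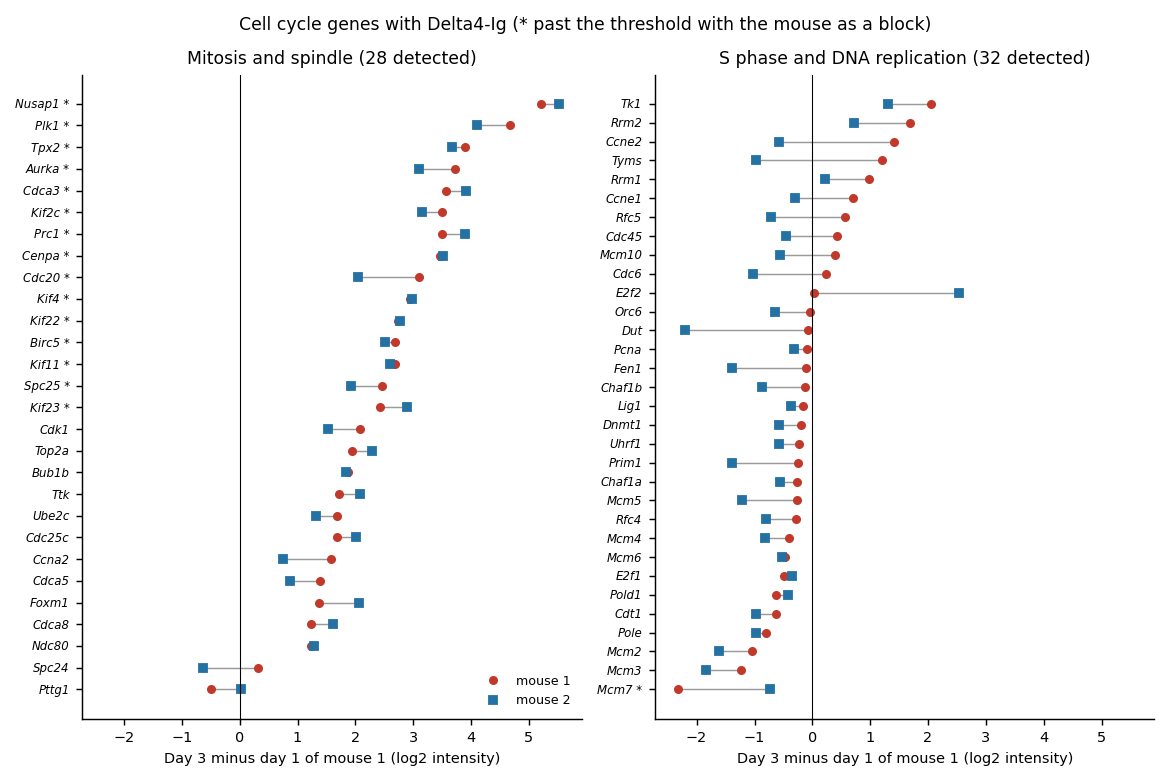
Change from day 1 in log2 intensity for the 28 mitosis and 32 S phase genes detected with Delta4-Ig, in mouse 1 (circles) and mouse 2 (squares), with a line joining the values of a gene. Nearly all mitosis genes lie right of 0 in both mice, up to 5.52 for Nusap1, whereas the S phase genes spread around and below 0.

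Among regulators of G1, the inhibitor Cdkn1a (p21) was prominent. It stood at 13.05 and 12.97 in mouse 1 and 12.45 in mouse 2 at day 3, against 7.22 at day 1, a fold of 55.1 in mouse 1 and 37.4 in mouse 2, and rose by 5.88 ± 0.43 (adjusted p = 0.00383 in limma with the mouse as a block). Cdkn2d, which encodes the CDK4 and CDK6 inhibitor p19, rose as well, with changes of 2.60 in mouse 1 and 4.43 in mouse 2. Ccnd3, the D-type cyclin of late lymphocyte activation, changed by 1.23 and 2.42, while Ccnd2 changed by -1.28 and -1.06, and neither passed the threshold. Of the 13 detected members, 2 rose and 0 fell. The p53 target list, which shares Cdkn1a, had a median change of 1.12 in mouse 1 and 0.63 in mouse 2 over 17 detected members, of which 2 rose, Cdkn1a and Phlda3, an inhibitor of Akt.

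Targets of hypoxia-inducible factors (HIF) were higher at day 3, and 8 of the 17 that were detected on any Delta4-Ig array entered through day 3 alone. All 17 detected members were above day 1 in both mice, with a median change of 2.39 in mouse 1 and 2.58 in mouse 2, and 8 rose. The 8 that were undetected at day 1 could hardly lie elsewhere, while the other 9 were detected at day 1 and were also higher in both mice. Mgarp, a mitochondrial protein gene induced by low oxygen, was at 11.61 and 12.32 in mouse 1 and 13.26 in mouse 2 at day 3, and was not detected at day 1 (5.50). It was at least 58.0-fold higher in mouse 1 and at least 142-fold higher in mouse 2 (adjusted p = 0.00383 in limma with the mouse as a block). Such bounds set day 3 against the higher of the probe's own day 1 value and the lowest signal detected on the day 1 array. Egln3, which hydroxylates HIF for its destruction, was at 12.94 and 13.28 in mouse 1 and 13.71 in mouse 2, against 7.01 at day 1. All 3 day 3 arrays of both genes lay far above day 1, with mouse 2 the highest. Ddit4, an inhibitor of mTORC1, was at 10.81 and 11.28 in mouse 1 and 13.05 in mouse 2, against 7.44 at day 1. Vegfa, the vascular growth factor, was at 10.28 and 10.34 in mouse 1 and 11.69 in mouse 2, against 6.53 at day 1. Ndrg1, Anxa2, P4ha2 and Plod2 rose as well, P4ha2 and Plod2 being collagen-modifying hydroxylases. Of these 8, mouse 2 lay above mouse 1 at day 3 for all but Plod2. The remaining 9 members included Bnip3l, a mitophagy receptor, with 1.48 and 1.98, and Kdm3a, a histone demethylase, with 0.78 and 1.67, and did not pass the threshold. The technical arrays of mouse 1 differed by a median of -0.21 over this list.

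The promoter windows of HIF targets were searched for ACGTG, the core of the hypoxia response element, which reads CACGT on the other strand. Windows were matched for 14 of the 17 genes, in 20 windows of the same RefSeq table and build. Of these, 12 held the letters (60.0%), against 26.7% of the windows of detected protein-coding genes. With 2 or more matches the shares were 10.0% and 11.9%. The list was made of known HIF targets, so a high share can follow from the choice of members and is no result of these data. Capitals mark the match in the 3 members with the largest change in mouse 1 among those with 1 window that holds it, printed here as examples. The windows lie at chr3:51396498-51396797 for Mgarp, chr12:54203825-54204124 for Egln3 and chr10:59951721-59952020 for Ddit4, all on the minus strand and written 5′ to 3′ along the gene.
Mgarp: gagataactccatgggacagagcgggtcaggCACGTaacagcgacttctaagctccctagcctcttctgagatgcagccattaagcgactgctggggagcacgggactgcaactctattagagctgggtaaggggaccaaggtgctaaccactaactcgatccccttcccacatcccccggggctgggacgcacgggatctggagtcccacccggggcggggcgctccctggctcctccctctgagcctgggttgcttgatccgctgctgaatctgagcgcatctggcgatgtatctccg
Egln3: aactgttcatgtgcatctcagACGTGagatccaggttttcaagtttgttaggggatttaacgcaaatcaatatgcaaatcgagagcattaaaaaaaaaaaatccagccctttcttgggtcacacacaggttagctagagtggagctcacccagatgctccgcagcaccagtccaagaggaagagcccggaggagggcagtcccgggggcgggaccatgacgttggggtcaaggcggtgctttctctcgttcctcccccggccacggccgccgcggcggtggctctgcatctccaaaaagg
Ddit4: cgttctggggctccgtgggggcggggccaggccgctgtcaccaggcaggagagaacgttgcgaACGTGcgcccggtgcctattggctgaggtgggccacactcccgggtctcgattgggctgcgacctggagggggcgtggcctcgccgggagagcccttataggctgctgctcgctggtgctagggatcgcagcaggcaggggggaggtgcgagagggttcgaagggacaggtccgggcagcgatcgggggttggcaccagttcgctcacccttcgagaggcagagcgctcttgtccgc
Each of these windows holds 1 match. The matches are letters in the window and were not tested as sites of HIF binding.

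Glycolytic genes moved with less amplitude and in the same direction. All 17 detected members were higher in both mice, 4 of them undetected at day 1, with medians of 1.19 in mouse 1 and 1.38 in mouse 2, and 2 of them rose. Aldoc, a fructose-bisphosphate aldolase, was at 9.48 and 9.49 in mouse 1 and 12.69 in mouse 2 at day 3 and was not detected at day 1 (4.81), so that it was at least 10.4-fold and at least 96.2-fold higher. Slc2a1, the glucose transporter GLUT1, was at 13.19 and 13.16 in mouse 1 and 13.53 in mouse 2, against 11.03 at day 1, and also rose. Slc2a3, the transporter GLUT3, was at 12.46 and 12.92 in mouse 1 and 14.56 in mouse 2, against 9.62 at day 1, and did not pass the threshold. For Tpi1, Pfkp, Hk2, Pkm, Ldha and Gapdh, enzymes along the pathway, the change in mouse 1 ran from 0.47 for Gapdh to 1.67 for Tpi1. By contrast the 24 detected genes of oxidative phosphorylation had medians of 0.08 in mouse 1 and -0.26 in mouse 2, and 0 of them had an unadjusted p under 0.05 in limma with the block, against 16.4% of all genes.

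**Figure D3:**
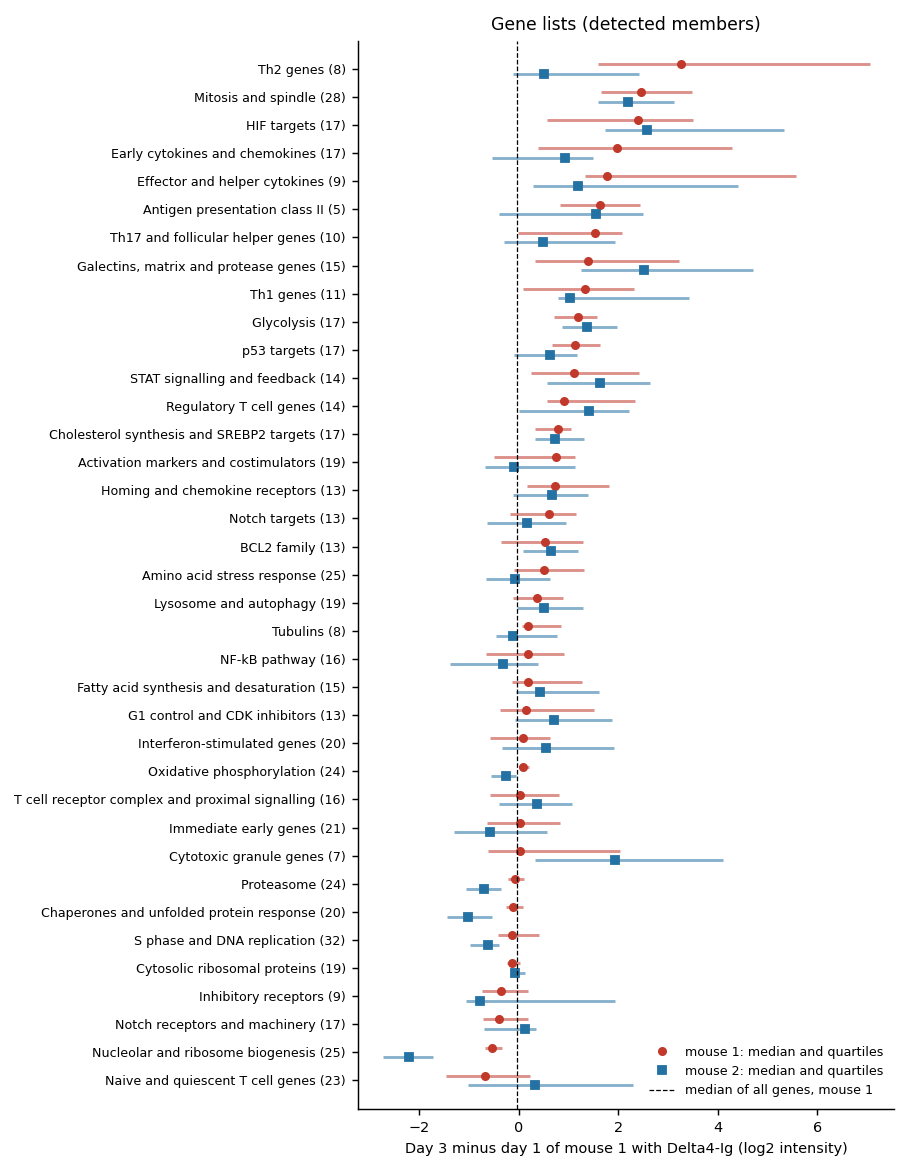
Median (symbol) and quartiles (line) of the change from day 1 for each gene list with at least 5 detected members, in mouse 1 (circles) and mouse 2 (squares), in log2 intensity, with the number of detected members in brackets. The mitosis list (2.45 in mouse 1) and the HIF targets (2.39) stand far right of the median of all genes, and ribosome biogenesis lies at -0.55 in mouse 1 and -2.21 in mouse 2.

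Cytokine genes showed large changes, and several of them differed between the mice. Of the 9 detected effector and helper cytokines, 7 were undetected at day 1 and entered through day 3 alone, so that their direction was largely set by that filter. The list medians were 1.77 in mouse 1 and 1.19 in mouse 2, and 3 members rose. Il10, which restrains inflammation, was at 12.54 and 12.68 in mouse 1 and 11.07 in mouse 2 at day 3 and was not detected at day 1 (4.73), a rise of at least 90.8-fold in mouse 1 and at least 31.2-fold in mouse 2 (adjusted p = 0.00357 in limma with the mouse as a block). Il21, which acts on B cells and T cells, was at 10.98 and 10.97 in mouse 1 and 9.80 in mouse 2, and was likewise undetected at day 1 (5.40). Ifng, the macrophage-activating cytokine of Th1 cells, was at 12.79 and 12.82 in mouse 1 and 12.11 in mouse 2, against 7.49 at day 1. For all 3 genes every day 3 array lay above day 1, and the smallest change of an animal was 4.40, for Il21 in mouse 2.

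Il4, the signature cytokine of Th2 cells, behaved otherwise. It was at 12.65 and 12.74 on the arrays of mouse 1, but at 5.43, not detected, in mouse 2 at day 3, and at 4.71, not detected, at day 1. Il4 was thus detected only in mouse 1 at day 3, and it did not pass the threshold. Gata3, the Th2 transcription factor and a known Notch target, was at 11.32 and 11.15 in mouse 1 and 8.40 in mouse 2 at day 3, against 7.28 at day 1, and Il13 was detected in mouse 1 (6.60 and 7.33) and not in mouse 2 (5.49) or at day 1 (5.19). The Th2 list as a whole, with 8 detected members of which 5 were undetected at day 1, had a median change of 3.27 in mouse 1 and 0.51 in mouse 2. Il24, a member of the IL-10 family, was shared by both mice, with 11.70 and 12.01 in mouse 1 and 12.08 in mouse 2 at day 3 against 5.07, not detected, at day 1. It did not pass the threshold (adjusted p = 0.153 in limma with the mouse as a block). The spread in that fit also holds the control Ig samples, where Il24 changed by -0.04 in mouse 1 and 6.71 in mouse 2.

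The early cytokine and chemokine list had 17 detected members, 5 of them undetected at day 1, with medians of 1.97 in mouse 1 and 0.93 in mouse 2, and 6 of them rose. Several of these calls rest on mouse 1. Csf2, the gene of GM-CSF, was at 10.70 and 11.01 in mouse 1 and 6.03 in mouse 2 at day 3, and was not detected at day 1 (4.95). Ccl1, a ligand of CCR8, was at 9.58 and 9.62 in mouse 1 and at 4.65, not detected, in mouse 2, with an undetected day 1 value of 5.20. The mouse 2 value of Ccl1 lay below day 1 although the blocked fit called it, because that fit attributes the difference between animals to the mouse. The same held for Il1a, with 7.87 and 8.13 in mouse 1, 4.80 in mouse 2 and 5.20 at day 1. The chemokine genes Ccl3 and Ccl4 rose with changes of 4.28 and 2.38 in mouse 1 and 1.13 and 1.11 in mouse 2. Ccl5, also a chemokine gene, was higher in mouse 2 (10.65) than on the arrays of mouse 1 (8.16 and 8.93) and was not detected at day 1 (5.71). Xcl1, the lymphotactin gene, changed by -1.52 and -3.79, and Tnf by -0.49 and -1.36, without passing the threshold.

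**Figure D4:**
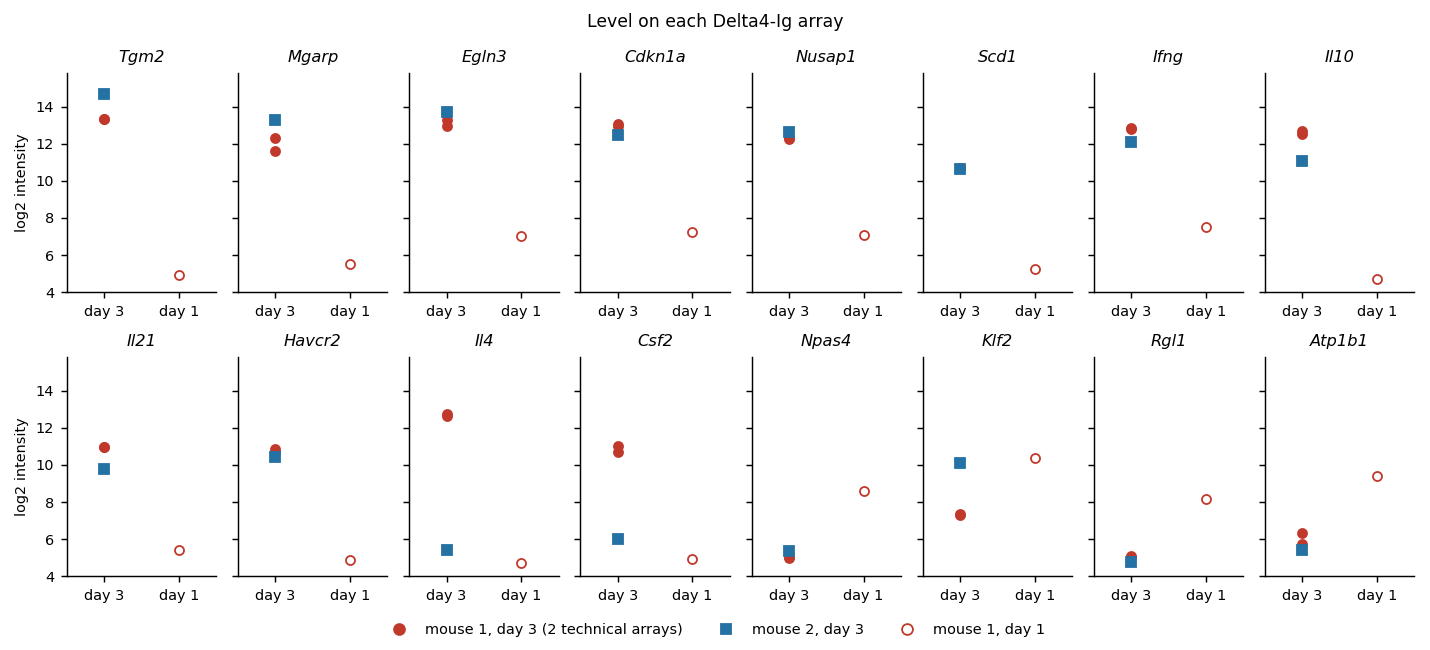
Log2 intensity of 16 genes on each Delta4-Ig array, with day 3 on the left (filled circles for the technical arrays of mouse 1, squares for mouse 2) and day 1 of mouse 1 on the right (open circles). Symbols overlap where values coincide, as for Scd1, and Il4, Csf2 and Klf2 show mouse 1 and mouse 2 apart at day 3.

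Helper cell lists were read in the same way. Among 11 detected Th1 genes, with medians of 1.33 in mouse 1 and 1.02 in mouse 2, Ifng, Ccl5 and Il12rb2 rose. Il12rb2, the signalling subunit of the IL-12 receptor, was at 9.86 and 10.24 in mouse 1 and 10.95 in mouse 2 at day 3 and was not detected at day 1 (5.82). Tbx21, the Th1 transcription factor T-bet, changed by 1.32 and 0.97, and Eomes by -1.80 and -1.69, and neither passed the threshold. Among 10 detected Th17 and follicular helper genes, Il21 and Ccr6 rose. Rora, a Th17 transcription factor, was at 6.99 and 7.12 in mouse 1 and 9.32 in mouse 2, undetected at day 1 (5.34), and Bcl6, that of follicular helper cells, changed by -0.33 and -1.93, both without passing the threshold. Of 14 detected regulatory T cell genes, Il10, Ebi3, Tnfrsf18 and Ctla4 rose. Foxp3, which defines that lineage, was at 9.13 and 8.93 in mouse 1 but at 5.76, not detected, in mouse 2 at day 3, against 6.82 at day 1. Its change was therefore 2.22 in mouse 1 and -1.05 in mouse 2.

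Receptors on the cell surface changed selectively. Havcr2, the gene of TIM-3, an inhibitory receptor, was at 10.85 and 10.68 in mouse 1 and 10.44 in mouse 2 at day 3, was undetected at day 1 (4.88), and rose by at least 25.3-fold in mouse 1 and at least 20.2-fold in mouse 2 (adjusted p = 0.00714 in limma with the mouse as a block). Ctla4, which competes with CD28, rose too, with 13.83 and 14.14 in mouse 1 and 13.53 in mouse 2, against 11.61 at day 1. Of the 9 detected inhibitory receptors, 5 were lower than day 1 in both mice, where 36.5% of all genes were, and 0 fell. Among the 5 was Pdcd1 (PD-1) with -0.75 and -0.78. Pdcd1 was undetected on every day 3 array and stood at 6.41 at day 1, where the lowest detected signal was 6.10. It was thus lower by at least 1.14-fold in mouse 1 and at least 1.55-fold in mouse 2. Lag3 was level with day 1 in mouse 1 (-0.04) and higher in mouse 2 (2.29). Cxcr4, the receptor for CXCL12, was at 9.11 and 9.10 in mouse 1 and 10.28 in mouse 2 and was undetected at day 1 (5.96), and it rose. Ccr6, the CCL20 receptor, rose by a smaller amount (2.13 ± 0.42). Of 19 detected activation markers and costimulators, only Tnfrsf18 (GITR) passed the threshold, with changes of 2.42 and 3.10, while Cd69, the earliest of these markers in activation, changed by -1.29 and -1.08 and Il2ra (CD25) by 1.26 and 0.01. Asb2, a subunit of an E3 ubiquitin ligase, was at 10.77 and 10.60 in mouse 1 and 10.17 in mouse 2 at day 3. It was undetected at day 1 (4.91) and did not pass the threshold (adjusted p = 0.116 in limma with the mouse as a block). With control Ig, which also enters that fit, Asb2 changed by 0.27 in mouse 1 and 4.74 in mouse 2.

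Of 13 detected Notch target genes, 7 were higher and 4 lower in both mice, with medians of 0.60 in mouse 1 and 0.17 in mouse 2, and 4 were at least 2-fold higher in mouse 1. In limma with the block 0 passed the threshold and 1 had an unadjusted p under 0.05, against 16.4% of all genes. Gata3, given above with the Th2 genes, had the largest change in mouse 1 of this list, with 3.95 in mouse 1 and 1.12 in mouse 2. Hey1, a transcriptional repressor induced by Notch, was at 7.57 and 7.42 in mouse 1 and 8.33 in mouse 2 at day 3 and was undetected at day 1 (6.07). Nrarp, a feedback inhibitor of Notch, was at 7.23 and 7.55 in mouse 1 and 6.53 in mouse 2, against 6.24 at day 1. Hes1, a repressor of the same family as Hey1, was at 7.08 and 6.99 in mouse 1 and 5.79 in mouse 2, against 6.43 at day 1, so that the day 3 values of Hes1 lay on both sides of day 1. Dtx1, a Notch-binding ubiquitin ligase, changed by -0.98 and -0.80. Among 17 detected receptors and machinery genes, 0 passed the threshold and 2 had an unadjusted p under 0.05 in that fit, with medians of -0.41 and 0.12. Notch1 changed by -0.51 and -0.87, and Rbpj, the DNA-binding partner of Notch, was at 5.38 and 5.26 in mouse 1 and 7.93 in mouse 2, undetected at day 1 (4.95).

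Genes of the resting T cell differed between the animals. The 23 detected naive and quiescence genes had a median change of -0.68 in mouse 1 and 0.31 in mouse 2, and 1 of them fell. That gene, Klf3, a repressor of the Krüppel-like family, was at 7.38 and 7.55 in mouse 1 and 5.93 in mouse 2 at day 3, against 9.48 at day 1 (estimate -2.16 ± 0.44, adjusted p = 0.0461 in limma with the mouse as a block). Klf2, which maintains quiescence and homing, was at 7.35 and 7.29 in mouse 1 but at 10.11 in mouse 2, against 10.37 at day 1. Txnip, which restrains glucose uptake, was at 8.75 and 8.78 in mouse 1 and 11.49 in mouse 2, against 8.27 at day 1. Il7r, the IL-7 receptor chain of resting cells, changed by 1.31 and 3.18. For 3 of these 4 genes, all but Klf3, the mouse 2 level at day 3 was the higher.

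The largest decreases came from genes of unlike roles. Among the 15 largest decreases in mouse 1 with a 2-fold decrease in mouse 2, 12 passed the threshold, with changes in mouse 1 between -3.62 and -2.52. Ipcef1, which binds regulators of ARF GTPases, was at 5.77 and 5.66 in mouse 1 and 5.83 in mouse 2 at day 3, against 9.33 at day 1. Atp1b1, a sodium pump subunit, was at 6.32 and 5.72 in mouse 1 and 5.42 in mouse 2, against 9.43. Both genes, picked for their decrease in both mice, lay more than 3 units below day 1 on all 3 day 3 arrays. Ipcef1 was undetected on both arrays of mouse 1 at day 3, and Atp1b1 was detected on only 1 of the 3 day 3 arrays. Npas4, an activity-dependent transcription factor best known from neurons, was not detected on any day 3 array (5.00 and 5.04 in mouse 1, 5.38 in mouse 2), against 8.57 at day 1, and was lower by at least 5.12-fold in mouse 1 and by at least 6.93-fold in mouse 2. Rgl1, an exchange factor for Ral GTPases, was likewise undetected at day 3 (5.09, 5.06 and 4.79), against 8.17 at day 1. Enpp4, Snn, Ifi214, Sidt1, Abraxas1, Rif1, Pdlim4 and Nsd1 fell as well. Of these, Rif1 acts in replication timing and break repair, Abraxas1 in the BRCA1-A complex, and Nsd1 methylates histone H3.

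Other immediate early genes did not share one course. Ier3, a stress-responsive gene, was at 10.55 and 11.06 in mouse 1 and 12.36 in mouse 2, undetected at day 1 (5.77), and rose. Egr1 was at 13.30 and 13.14 in mouse 1 and 12.71 in mouse 2 against 13.30 at day 1, and Irf4 changed by 0.02 and -0.36, so that these targets of receptor signalling stayed within 1 unit of day 1. Nr4a2, an orphan nuclear receptor, changed by -2.24 and -0.79. Of 21 detected members, Ier3 alone rose and Npas4 alone fell.

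Growth genes separated by animal. The 25 detected nucleolar and ribosome biogenesis genes were lower than day 1 in both mice in 23 cases, yet the median was -0.55 in mouse 1 and -2.21 in mouse 2. In limma with the block 0 passed the threshold and 4 had an unadjusted p under 0.05, a share close to the 16.4% of all genes. Ncl, the nucleolin gene, was at 11.89 and 11.68 in mouse 1 and 8.70 in mouse 2 at day 3, against 13.31 at day 1. Pes1, needed for maturation of the large ribosomal subunit, was at 9.52 and 9.49 in mouse 1 and 5.64 in mouse 2, against 10.12 at day 1. Myc, which drives these genes in growing cells, was at 8.06 and 7.84 in mouse 1 and 6.38 in mouse 2, against 8.12 at day 1. In each of these 3 genes mouse 1 lay between mouse 2 and day 1. Chaperones and unfolded protein response genes followed a similar split, with medians of -0.12 in mouse 1 and -1.03 in mouse 2 over 20 members, and the 24 proteasome genes had -0.08 and -0.71. The ribosomal proteins stayed close to day 1, with -0.14 and -0.08 over 19 members.

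Among 15 detected genes of fatty acid synthesis and desaturation, 8 were higher and 3 lower in both mice, against 32.3% and 36.5% of all genes. The medians were 0.19 in mouse 1 and 0.42 in mouse 2, and 2 members rose. Scd1, which introduces the double bond into saturated fatty acids, was at 10.68 and 10.72 in mouse 1 and 10.66 in mouse 2 at day 3, was undetected at day 1 (5.26), and rose by at least 24.1-fold in mouse 1 and at least 23.4-fold in mouse 2 (adjusted p = 0.0107 in limma with the mouse as a block). Scd2, its paralogue, was at 10.46 and 10.76 in mouse 1 and 11.12 in mouse 2, against 7.31 at day 1, and rose too. Both mice gave nearly equal values for Scd1. Acly and Fasn, which supply acetyl-CoA and build palmitate, changed by 0.19 and -0.64 in mouse 1 and by 0.16 and -1.28 in mouse 2. Of the 17 detected cholesterol synthesis genes, 15 were higher in both mice, with medians of 0.78 and 0.72, and 0 passed the threshold while 6 had an unadjusted p under 0.05 in limma with the block, where 16.4% of all genes did. Mvd, a mevalonate pathway decarboxylase, had the largest change in mouse 1 there, with 1.61 in mouse 1 and 1.98 in mouse 2.

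Secreted and matrix-related genes included the largest increase with the same direction in both mice. Tgm2, a transglutaminase that cross-links proteins, was at 13.35 on both arrays of mouse 1 and at 14.67 in mouse 2 at day 3, and was undetected at day 1 (4.95). It was at least 152-fold higher in mouse 1 and at least 380-fold higher in mouse 2 (adjusted p = 0.0139 in limma with the mouse as a block). Lgals1, which encodes galectin-1, was at 12.28 and 12.29 in mouse 1 and 12.68 in mouse 2, against 7.77 at day 1. Lgals3, Timp1, Igfbp7 and Serpinf1 rose as well, so that 6 of 15 detected members rose and 0 fell, and 6 of the 15 were undetected at day 1. The list had medians of 1.40 in mouse 1 and 2.52 in mouse 2. Igfbp4, a binding protein of insulin-like growth factors, went opposite ways, with -1.89 in mouse 1 and 2.52 in mouse 2. Outside these lists, Mt1, a metallothionein, was at 14.79 and 15.04 in mouse 1 and 15.52 in mouse 2, against 8.96 at day 1, and Gja1, the gap junction protein connexin 43, was at 11.48 and 11.77 in mouse 1 and 10.77 in mouse 2, against 6.13. Both rose. Tubb6, a beta-tubulin, rose by 5.94 ± 0.48 and was undetected at day 1, while the other detected tubulins were not past the threshold.

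Class II antigen presentation genes were partly higher. H2-Ab1, a class II beta chain, was at 10.72 and 10.98 in mouse 1 and 12.49 in mouse 2 at day 3, was undetected at day 1 (6.06) and rose by at least 26.8-fold in mouse 1 and at least 83.7-fold in mouse 2. H2-DMa, which helps to load peptide, rose with changes of 2.44 and 2.50. Of the 5 detected members, 3 were undetected at day 1, and 3 were higher in both mice. The third of these, H2-DMb1, the partner of H2-DMa, was at 6.30 and 6.19 in mouse 1 and 6.96 in mouse 2, detected on 2 of the 3 day 3 arrays and not at day 1 (5.41), and did not pass the threshold. Cd74, the invariant chain, was at 9.45 and 9.60 in mouse 1 and 7.50 in mouse 2, against 7.91 at day 1, so its day 3 values lay on both sides of day 1. H2-Aa was at 6.37 and 6.25 in mouse 1 and at 4.92, undetected, in mouse 2, against 5.53 at day 1, and H2-Eb1 and the class II activator Ciita were detected on no Delta4-Ig array. Beside this, the B cell markers summed to 339 in mouse 1 and 324 in mouse 2 at day 3 on the linear scale, against 370 at day 1, with Ms4a1, Cd79a and Pax5 undetected throughout. The myeloid and dendritic cell markers summed to 2297 in mouse 1 and 2849 in mouse 2, against 1477 at day 1, and 12 of 14 were undetected on every Delta4-Ig array. Cst3, which many cell types express, made up most of that sum, with 10.88 in mouse 1 and 11.19 in mouse 2 against 9.99 at day 1. The part of other cells in the class II values was not tested.

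Cytotoxic genes were few and again split by animal. Nkg7, a granule membrane protein of killer cells, was at 12.70 and 12.91 in mouse 1 and 13.67 in mouse 2 at day 3, against 9.02 at day 1, and Serpinb6b, a protease inhibitor, was at 11.94 and 12.16 in mouse 1 and 11.22 in mouse 2, against 7.65. Both rose, and they were 2 of 7 detected members. Ctsw, a cathepsin of cytotoxic cells, was at 8.53 and 8.64 in mouse 1 and 13.36 in mouse 2, against 8.57 at day 1. Prf1, the pore-forming perforin, was at 9.27 and 8.93 in mouse 1 and 12.16 in mouse 2, against 10.23. Klrd1, a natural killer cell receptor, was detected in mouse 2 at day 3 (9.13) and at day 1 (6.12) and not in mouse 1 at day 3 (5.31). Like Ctsw and Prf1 it was highest in mouse 2, but in mouse 1 Ctsw was level with day 1. Of the other natural killer cell markers, Klrk1 was detected in mouse 2 at day 3 alone (5.83). Klrb1c, Ncr1, Klra7, Klri2 and Klre1 were detected on no Delta4-Ig array. The part of other cells in these values was not tested.

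Genes that changed at least 2-fold in opposite directions in the mice numbered 11 among those higher in mouse 1 and 31 among those lower in mouse 1. Beside Foxp3, the largest of the first kind were Akr1c18 (2.16 in mouse 1 and -2.35 in mouse 2), a reductase of steroids, F2rl3, a thrombin receptor, Cd83, an activation marker, and Tnfsf4, which encodes the ligand of OX40. Of the second kind, Baz2a, a chromatin remodeller of ribosomal genes, was at 5.40 and 4.75 in mouse 1 and 9.07 in mouse 2 at day 3, against 7.70 at day 1, and Tmie, Nsg2, Abcb4 and Ppp1r16b followed. None of these 10 genes passed the threshold.

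The change over time with Delta4-Ig was then set against that with control Ig. In this comparison 0 probes passed the threshold, with or without the mouse as a block in limma. Without the block 59 probes had an unadjusted p under 0.05, and with it 371 did. Both counts lay below the 571 that would be met by chance. The smallest adjusted p in limma with the block was 0.0589. That value belonged to Il10, which changed by 7.88 in mouse 1 and 6.34 in mouse 2 with Delta4-Ig, and by 0.50 and -0.06 with control Ig (difference 6.89 ± 0.63, SE). Among genes with the larger change under Delta4-Ig, receptors and an enzyme had the next smallest p-values. Havcr2 changed by 5.89 and 5.56 with Delta4-Ig and by 0.36 and 1.68 with control Ig. Cxcr4 changed by 3.14 and 4.31 with Delta4-Ig and by -0.68 and 0.91 with control Ig. Gcnt1, a glycosyltransferase that makes selectin ligands, changed by 4.57 and 5.42 with Delta4-Ig and by 0.83 and 0.30 with control Ig. For each of these 4 genes both Delta4-Ig changes lay above both control Ig changes. Picking genes by the p-value of this difference favours that order, so it adds no support. Ffar2, whose product binds short-chain fatty acids, and Cysltr1, a leukotriene receptor, gave the same order. These 5 genes other than Il10 had an adjusted p of 0.314 in limma with the block.

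In the other direction, Ccr6, with the smallest p after Il10 over both directions, changed by 2.11 and 1.26 with Delta4-Ig and by 6.18 and 5.26 with control Ig, with an adjusted p of 0.314. Isg15, an interferon-induced ubiquitin-like protein, changed by -0.96 and 0.11 with Delta4-Ig and by 2.10 and 4.19 with control Ig (adjusted p = 0.332 in limma with the mouse as a block). The interferon-stimulated list, with 20 detected members, had medians of 0.08 in mouse 1 and 0.55 in mouse 2 with Delta4-Ig, and of 0.84 and 1.34 with control Ig, and the sign of the mouse 1 median with Delta4-Ig depended on the processing (-0.05 to 0.24). For mitosis the medians were 2.45 and 2.18 with Delta4-Ig and 2.71 and 2.84 with control Ig. For HIF targets they were 2.39 and 2.58 with Delta4-Ig and 0.46 and 1.29 with control Ig. Members were kept by detection on the Delta4-Ig arrays alone, and 8 of the 17 HIF targets entered through Delta4-Ig at day 3 alone. That filter favours a larger change with Delta4-Ig, so the order of these medians adds no support for a difference. For S phase they were -0.14 and -0.61 with Delta4-Ig and 0.18 and 0.12 with control Ig. The difference between stimuli called 0 members of any of these lists. Tgm2 was higher over time with both, by 8.40 and 9.72 with Delta4-Ig and by 4.15 and 9.40 with control Ig, and so was Cdkn1a, by 5.78 and 5.23 with Delta4-Ig and by 5.02 and 4.06 with control Ig.

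**Figure D5:**
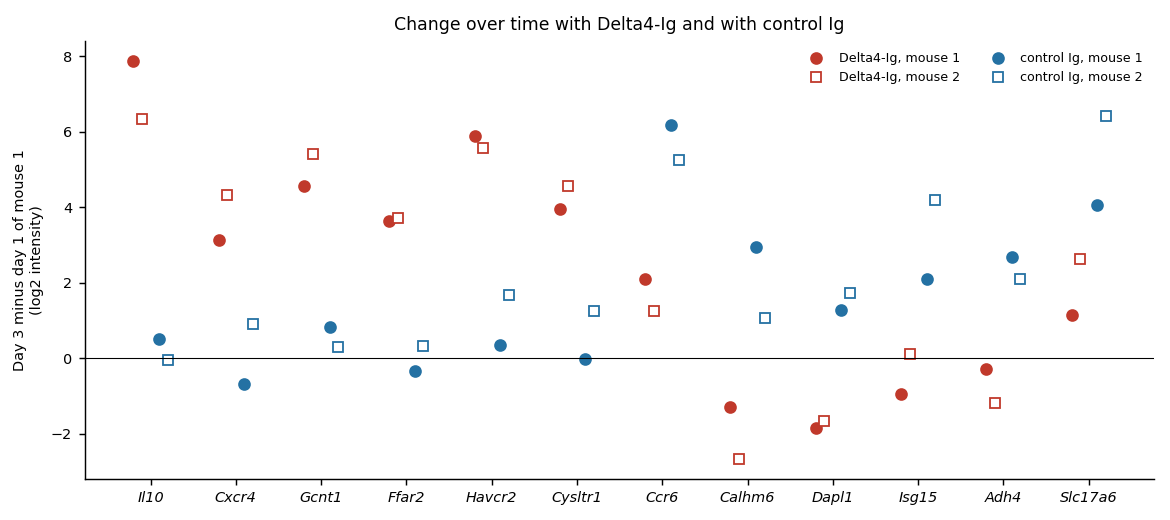
Change from day 1 to day 3 in log2 intensity with Delta4-Ig (red) and with control Ig (blue), in mouse 1 (circles) and mouse 2 (open squares), for the 6 genes in each direction with the smallest p for the difference between stimuli. Il10 lies at 7.88 and 6.34 with Delta4-Ig and near 0 with control Ig, and Calhm6 and Dapl1 lie below 0 with Delta4-Ig and above 0 with control Ig.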

How the data were processed

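Biotin-labelled RNA of 6 samples was hybridised to 8 Illumina mouse arrays. The authors deposited linear intensities, neither background-subtracted nor normalized between arrays, each with a detection p-value. They also deposited log2 values, which differ from neqc (limma, offset 16) of those intensities by at most 0.0417 and were read as background-corrected, quantile-normalized log2 intensities. GenomeStudio and limma are named, without versions, per the submitters' processing notes. Symbols came from the platform annotation: 23978 of 25697 probes had 1 symbol, 0 had several and 1719 are unnamed here.

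Technical arrays were averaged. Probes with detection p under 0.01 on at least 1 of the 4 Delta4-Ig arrays (11413) entered limma 3.58.1 in R 4.3.3 (lmFit, eBayes), with 4 groups and 2 residual degrees of freedom. The alternative held the mouse as a block, since the labels give 1 number to samples of 1 animal. The difference between the mice at day 3 correlated at 0.600 across probes between stimuli. All tests were two-sided, adjusted by Benjamini-Hochberg at 0.05. Day 1 is 1 sample and is assumed to vary like day 3. With so few arrays, their number limits precision. The fits were also run on simulated data with 1 mouse effect shared by both stimuli. That setting cannot show how the blocked fit behaves where the mouse difference varies between stimuli, as it did here. All arrays lie on 1 chip.

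A gene was its brightest detected probe. Named were the 15 largest changes each way in mouse 1 with a 2-fold change of the same direction in mouse 2, list members, the 5 largest each way with an opposite 2-fold change, and the 6 each way with the smallest p between stimuli. Members, 42 gene lists (578 detected genes) and rules were chosen with earlier results of these data known. Promoter windows came from RefSeq. Alternatives covered background correction, normalization, detection filter, samples, technical arrays and probe choice.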

Additional observations from a re-analysis of the deposited data

Results flagged for a closer look

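Of the 50 genes named by rules other than the lists, 2 moved at least 2-fold one way with Delta4-Ig and at least 2-fold the other way with control Ig in both mice. Calhm6, a calcium homeostasis modulator family gene, changed by -1.29 in mouse 1 and -2.67 in mouse 2 with Delta4-Ig, and by 2.95 and 1.06 with control Ig. The difference between the stimuli was -3.98 ± 0.58 (SE), which did not pass the threshold (adjusted p = 0.314 in limma with the mouse as a block). Dapl1, listed among the naive T cell genes, changed by -1.85 and -1.67 with Delta4-Ig, and by 1.27 and 1.73 with control Ig. Its difference was -3.26 ± 0.56 (SE), with an adjusted p of 0.332 in the same fit. Both changes within a stimulus share that stimulus's day 1 array. Among all 7892 genes, 3 had this pattern with Delta4-Ig lower, and 0 with Delta4-Ig higher.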

How the results depend on the processing

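The blocked recomputations were added after seeing the data. The unblocked count of 0 probes for the change with Delta4-Ig became 342 with the mouse as a replicate block and 56 with Delta4-Ig samples only. Leaving out 1 replicate gave 0 to 56, the 56 coming without either control Ig day 3 replicate. Under the block, the 342 became 19 with no background correction, 706 with 75th percentile scaling, 631 with the second array of mouse 1 only and 0 with no detection filter, where 2979 probes had an unadjusted p under 0.05. Of 82 named or listed genes that passed it, 15 passed with no background correction and 0 with no detection filter, while 82 passed with 75th percentile scaling, and their adjusted p in limma ran from 9.7e-06 to 0.368 over the settings. The difference between stimuli was 0 in each unblocked setting. With the block it was 19 with 75th percentile scaling, 1 with the first array of mouse 1 and 8 with the second array only. The 1435 genes changed at least 2-fold in mouse 1 became 659 with no background correction and 870 with detection on all 4 Delta4-Ig arrays, and the 1225 with the same sign in mouse 2 became 582 and 736. The 82 genes kept their direction in each setting run, and 29 of 252 list medians moved beyond the spread. Without a replicate the block leaves no residual degree of freedom, so it was not run, and day 1 has no second sample.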

Other observations

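Further lists are given with their members past the threshold. The 25 detected amino acid stress genes had medians of 0.50 in mouse 1 and -0.08 in mouse 2. Of them, 11 were higher in both mice, where 32.3% of all genes were, and 1 rose, where 2.57% of all genes did. That gene was Vldlr, a lipoprotein receptor, at 9.61 and 9.94 in mouse 1 and 11.62 in mouse 2 at day 3 and undetected at day 1 (4.80), and 2 of its other 3 detected probes had the same sign. Chac1, which degrades glutathione, was at 10.66 and 11.21 in mouse 1 and 9.19 in mouse 2, undetected at day 1 (6.07), and Asns, asparagine synthetase, changed by 3.55 and 3.02. Neither passed the threshold. The aminoacyl-tRNA synthetases Aars, Gars, Mars1, Nars and Wars were at or below day 1, by -0.10 to -0.35 in mouse 1.

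Among 14 detected STAT signalling genes, Il12rb2, Socs2 and Socs3 rose. Socs3, a feedback inhibitor of cytokine receptors, was at 10.99 and 11.06 in mouse 1 and 12.55 in mouse 2, against 8.15 at day 1. Batf, a transcription factor of helper cells, was at 11.19 and 11.22 in mouse 1 and 8.78 in mouse 2, against 8.36 at day 1. Of 16 detected T cell receptor signalling genes, Themis, which tunes receptor signals, rose, with 10.70 on both arrays of mouse 1 and 10.98 in mouse 2, against 6.78 at day 1. Of 19 lysosome and autophagy genes, Grn (progranulin) rose, with changes of 2.06 and 3.32. No member of the NF-kB list (16 detected) or the BCL2 family (13 detected) passed the threshold, where 2.57% of all genes rose and 0.507% fell. In limma with the block, 5 NF-kB members and 6 BCL2 family members had an unadjusted p under 0.05, against 16.4% of all genes.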
